A study of Mus musculus with 47 samples.

Results

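Bcl11b-deficient and control mouse T-cell precursors were compared between day 12 and day 9 to 10 of culture, to ask which transcripts moved as the cultures aged. The libraries were chosen by their titles: fetal liver cells that had received a Cre retrovirus and grew on OP9-DL1 stroma with the standard IL-7 dose and no additional vector, with title dates from February to August of 1 year. They were 13 of the 47 RNA-seq libraries in the series, made from 8 cultures, 4 of each genotype. Bcl11b knockout cells on day 12 gave 3 libraries and knockout cells on day 9 to 10 gave 4, of which 3 were from day 9 and 1 from day 10. Control cells on day 12 gave 3 libraries, and control cells on day 9, 9.5 and 10 gave 1 each.

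All cells came from livers of embryonic day 13.5 mice. Per the labels' protocols, knockout cells carried homozygous floxed Bcl11b alleles (Bcl11bfl/fl), with or without a ROSA26R-YFP reporter of Cre excision, and controls were C57BL/6 embryos (B6 in the titles) with or without that reporter. The labels do not say which libraries carried the reporter, nor how many embryos entered a culture. Both genotypes received the Cre virus, spent 24 h on stroma with Flt3L, IL-7 and SCF, were re-sorted as transduced Kit+CD27+ cells, and went back to stroma with 5 ng/ml of Flt3L and of IL-7. At harvest, per the same protocols, floxed cells were sorted in the DN2a gate (Kit high, CD25+). Controls were sorted in the DN2b gate (Kit intermediate, CD25+), so Kit and Il2ra, which encodes CD25, were sort markers. The deletion therefore depended on transduction and sorting. The titles, listed below, give DN2 or another stage for many of these libraries, so the gate of each library is not certain.

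OP9-DL1 is a bone marrow stromal line that displays the Notch ligand Delta-like 1, and Notch signals from it drive blood precursors into the T lineage. Precursors pass through the double-negative stages DN1, DN2a and DN2b before they reach DN3, where rearranged T-cell receptor chains are first tested. DN2a cells still hold progenitor and innate potential, and the transcription factor Bcl11b is switched on at the DN2a to DN2b step, where cells commit. Cells that lack Bcl11b remain DN2-like and keep growing in IL-7, and many turn on natural killer genes. IL-7 and the receptor tyrosine kinase Kit sustain the survival and division of these cells.

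The cultures are named by their start, taken as the title date minus the culture day. The July cultures, 1 of each genotype, were sampled on days 9, 10 and 12. The knockout culture begun on August 11 was sampled on days 9 and 12, and the control culture of that date on day 12. Cultures begun on August 18 were sampled on day 12. A March knockout culture was sampled on day 9, and a February control culture on day 9.5. Libraries of 1 culture are not independent cultures, and p-values that treat all 13 libraries as separate measure the spread between these libraries.

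The values are FPKM, deposited after an adjustment for batches. Library totals ran from 649107 to 921302 FPKM, and between 12032 and 13370 genes reached 1 FPKM. Pairs of the 13 libraries correlated between 0.926 and 0.989. The titles stage the March knockout as DN2a, the August 11 knockout of day 12 as DN2b and the other knockout libraries as DN2. They stage the July controls as DN2 and the other controls as DN2b. In 14 pairs of July or August libraries with the same stage and genotype, between 673 and 876 genes had identical values in both, against at most 2 genes in each of the other 64 pairs. Of the genes with such a value, 874 were among the 13674 tested.

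Bcl11b itself stood at 16.0, 37.9 and 25.5 FPKM in the knockout libraries of day 12 (July, August 11 and August 18), and at 8.77, 17.3, 18.6 and 27.3 FPKM in the earlier ones (July day 9, July day 10, August 11 day 9 and March day 9). In control libraries it stood at 72.7, 84.4 and 48.1 FPKM on day 12 (July, August 11 and August 18), and at 40.5, 66.3 and 54.1 FPKM earlier (July day 9, July day 10 and February day 9.5). All knockout values lay below all control values. The difference over time was 0.55 (SE 0.34) in knockout cells and 0.33 (SE 0.37) in control cells on the log2(FPKM + 1) scale. The labels do not name the deleted exons, so a total over the gene is only a partial check of the deletion. Sample values below keep these orders.

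No gene passed the threshold for a time difference in either genotype. limma, fitted to log2(FPKM + 1) of 13674 genes with Benjamini-Hochberg adjustment, called 0 genes (0.0%) at an adjusted p under 0.05 in knockout cells, where the smallest adjusted p was 0.201. At an unadjusted p under 0.05 there were 2177 genes (15.9%) in knockout cells, 1339 higher and 838 lower on day 12. In control cells 0 genes (0.0%) were called, the smallest adjusted p was 0.828, and 783 genes (5.73%) had an unadjusted p under 0.05, with 557 higher and 226 lower. Over both genotypes together 0 genes (0.0%) were called, the smallest adjusted p was 0.113, and 2873 genes (21.0%) had an unadjusted p under 0.05. The test of whether time acted differently in the genotypes called 0 genes (0.0%), with an adjusted p of 1 throughout and 312 genes (2.28%) at an unadjusted p under 0.05. The values of single genes below are levels and differences that did not pass the test.

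Removing single libraries moved these counts. Without the July knockout library of day 12, 27 genes were called in knockout cells. Without the July control library of day 12, 5 were called in control cells, and without the August 18 control library 37 were called over both genotypes.

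Genes whose day 12 libraries did not overlap the earlier ones, here termed separated, were counted as a second description. In knockout cells 974 genes (7.12%) lay higher in every day 12 library than in every earlier one and 960 (7.02%) lay lower. In control cells 878 (6.42%) lay higher and 357 (2.61%) lower. Both genotypes separated in the same direction for 141 higher and 43 lower genes, and in opposite directions for 11 genes, 6 of them higher in knockout cells. Without the July knockout library of day 12, 2924 knockout genes lay higher and 1900 lower, and without the August 18 control library of day 12, 2415 control genes lay higher and 1119 lower. Without the February and March libraries the counts were 2073 and 1344 in knockout cells and 1600 and 905 in control cells. A separated gene stays separated when a library is left out, so the counts with libraries left out could only stay or rise. Groups with fewer libraries also separate more often by chance. The control groups held fewer libraries than the knockout groups, so their counts are not directly comparable. The part of chance in any of these counts was not tested.

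The cultures that were sampled repeatedly give differences over time within 1 culture. The deposited column names carry codes of unstated meaning. In the July cultures the code was I on day 9 and B on day 10, and on day 12 B in control and "new" in knockout cells. The August 11 libraries all carried J. In both July cultures day 9 and day 12 therefore differ in code as well as in time, and the part of the code was not tested. From day 9 to day 12, 550 genes were higher by 1 or more on the log2(FPKM + 1) scale and 256 lower in the July knockout culture, 803 higher and 341 lower in the August 11 knockout culture, and 468 higher and 240 lower in the July control culture. Day 10 lay between day 9 and day 12 for 431 of the 550 higher and 199 of the 256 lower genes in the July knockout culture, and for 345 of the 468 and 182 of the 240 in the July control culture. In both knockout cultures 220 genes (1.61%) were higher by 1 or more and 71 (0.519%) lower, and 7 moved in opposite directions. In all 3 cultures 49 genes (0.358%) were higher and 16 (0.117%) lower.

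Across the 13674 genes, which are not independent replicates, the log2 differences of the knockout cultures had a Pearson r of 0.56 with each other. The difference of the July control culture had an r of 0.40 with that of the August 11 knockout culture and of 0.22 with that of the July knockout culture. Each of these is a single pair of libraries, so a gene's difference within 1 culture has no replicate.

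**Figure D1:**
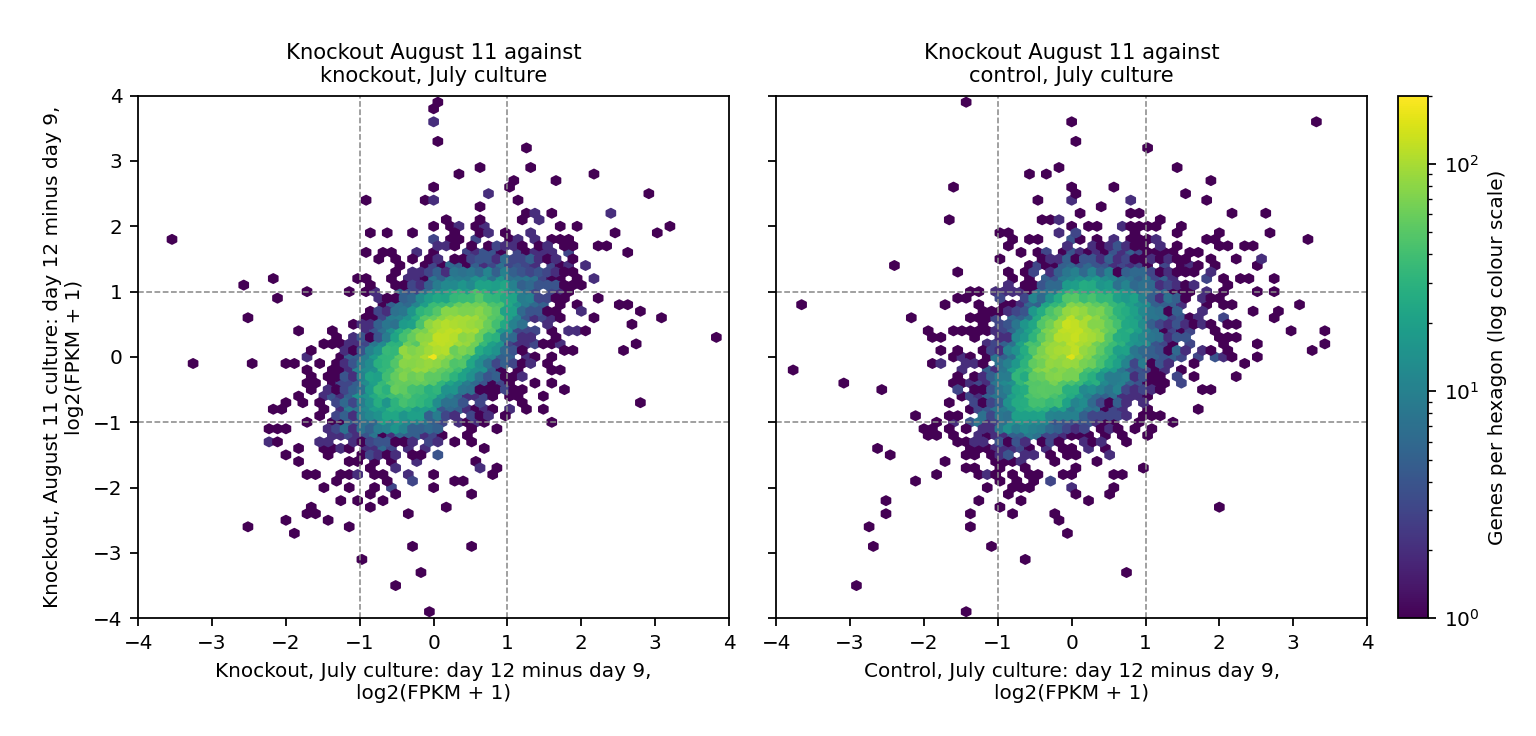
Log2(FPKM + 1) difference between day 12 and day 9 of the August 11 knockout culture (vertical axes) against the July knockout culture (left) and the July control culture (right), for 13674 genes in hexagons coloured by gene count on a log scale; dashed lines mark 1 and -1. The axes end at 4 and -4, which leaves out 16 genes on the left and 17 on the right; the left cloud lies closer to the diagonal (r = 0.56 against 0.40).

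The genes highest above their day 9 level in all 3 cultures included the IL-7 receptor chain. Il7r stood at 52.2, 78.5 and 85.5 FPKM in knockout cells on day 12, against 14.9, 28.3, 22.2 and 54.7 FPKM earlier, a difference of 1.36 (SE 0.48). The March library, at 54.7 FPKM, kept the knockout groups from separating. In control cells Il7r stood at 80.9, 46.3 and 22.4 FPKM on day 12, against 22.4, 54.8 and 15.1 FPKM earlier, a difference of 0.70 (SE 0.51), and the groups overlapped. That difference was 0.27 without the July library of day 12, 0.31 without the February library, 1.17 without the August 18 library and 1.21 without the July library of day 10. Within the cultures the differences from day 9 to day 12 were 1.74 and 1.78 in the July and August 11 knockout cultures and 1.81 in the July control culture.

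Sh2d1a, which encodes the adaptor SAP of SLAM-family receptors in T and NK cells, followed the same course in knockout cells. It stood at 37.8, 61.9 and 87.7 FPKM on day 12, against 4.34, 17.7, 10.1 and 38.0 FPKM earlier, a difference of 2.06 (SE 0.56), and March was again the only earlier library within the range of day 12. In control cells the levels overlapped, at 50.3, 32.3 and 65.7 FPKM on day 12 and 16.9, 65.2 and 30.3 FPKM earlier. Trp53inp1, a stress protein of the p53 and autophagy pathways, stood at 29.3, 48.7 and 32.5 FPKM in knockout cells on day 12, against 4.94, 17.3, 9.85 and 36.3 FPKM earlier. Its within-culture differences were 2.35, 2.20 and 2.16 in the July knockout, August 11 knockout and July control cultures. Lztfl1, a protein of ciliary trafficking, had differences of 1.64, 2.69 and 1.83 in the same cultures, and Gbp6, an interferon-induced GTPase, of 1.94, 2.05 and 1.47. Gbp6 stood at 3.23, 16.8 and 7.82 FPKM in knockout cells on day 12, against 0.1, 0.825, 3.29 and 8.95 FPKM earlier, and at 69.3, 91.9 and 41.3 FPKM in control cells on day 12, against 24.5, 57.3 and 16.8 FPKM.

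Other genes that were higher in both knockout cultures were Itga4, Themis, Pde3b and Pou2af1. Itga4 is an integrin chain of homing precursors, and its differences were 1.81 in the July and 1.79 in the August 11 knockout culture. Themis, a signalling protein of developing thymocytes, had differences of 1.72 and 2.01, and the cyclic nucleotide phosphodiesterase Pde3b of 1.87 and 1.72. Pou2af1 encodes an octamer-binding coactivator best known in B cells, and it was at 8.79, 12.7 and 12.2 FPKM on day 12, against 0.1 (the floor of the table), 2.60, 2.44 and 5.96 FPKM earlier. All day 12 knockout libraries of Pou2af1 lay above all earlier ones.

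Fewer genes were lower in all 3 cultures. Cox4i2, a hypoxia-induced subunit of cytochrome c oxidase, stood at 4.67, 2.00 and 3.21 FPKM in knockout cells on day 12, against 32.4, 6.62, 17.2 and 9.97 FPKM earlier. In control cells it stood at 1.68, 2.34 and 13.2 FPKM on day 12, against 16.4, 5.75 and 11 FPKM earlier. The knockout groups did not overlap, whereas the August 18 control library lay among the earlier controls. Lta, which encodes lymphotoxin alpha, stood at 2.56, 1.78 and 3.43 FPKM in knockout cells on day 12, against 10.7, 9.82, 13.3 and 11.5 FPKM earlier, and at 0.833, 2.40 and 14.9 FPKM in control cells on day 12, against 9.63, 3.73 and 11.7 FPKM. Here too the August 18 control library was the exception. Id1, an inhibitor of E proteins, the factors that open the T-cell programme, separated in both genotypes. It stood at 9.30, 4.78 and 6.73 FPKM in knockout cells on day 12, against 26.7, 10.2, 15.9 and 12.1 FPKM, and at 7.99, 10.3 and 16.0 FPKM in control cells on day 12, against 28.3, 18 and 25 FPKM. Its differences were -1.07 (SE 0.31) in knockout and -1.02 (SE 0.33) in control cells.

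**Figure D2:**
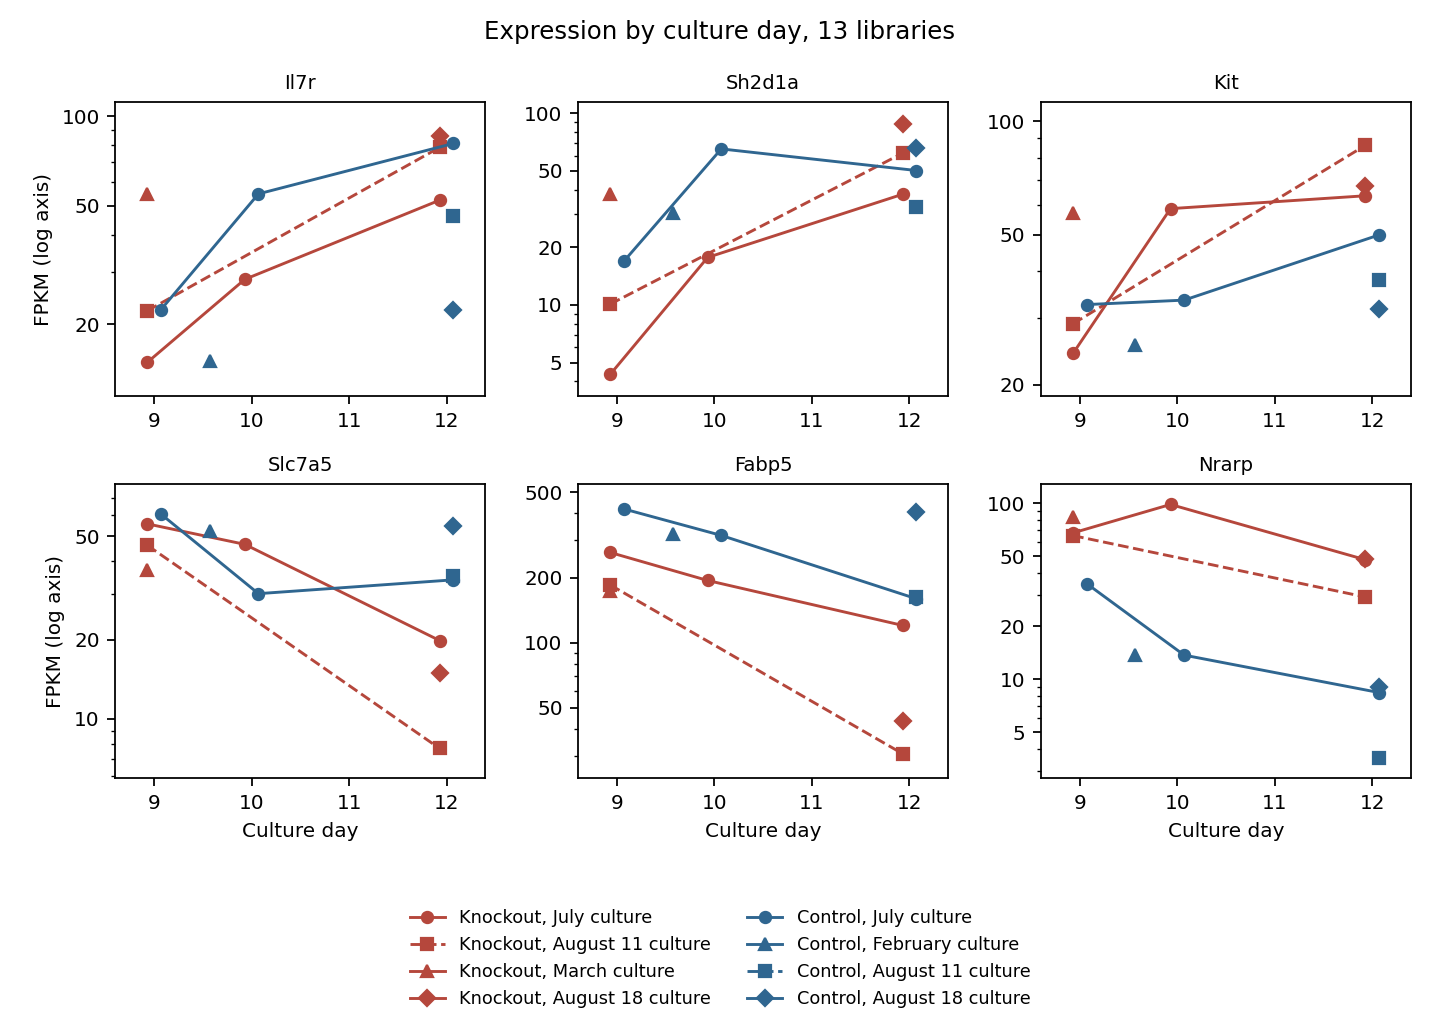
FPKM (log axis) of 6 genes against culture day in the 13 libraries, knockout in red and control in blue; lines join libraries of 1 culture. Il7r, Sh2d1a and Kit lie highest on day 12 within the July and August 11 knockout cultures, and Slc7a5 and Fabp5 lowest; Nrarp lies lower on day 12 in both genotypes.

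A set of stage genes was taken from other libraries of the series, 4 of normal fetal liver cells staged DN2a and 2 staged DN2b. limma called 1799 of 13364 genes between those stages at an adjusted p under 0.05, 1234 higher in DN2b and 565 higher in DN2a. Of the DN2b libraries, 1 is titled DN3, and the dated ones were harvested on day 4.5 or 8.5 for DN2a and on day 8.5 for DN2b, so stage and culture age are not fully separate in that set.

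Genes of the later stage lay higher on day 12 in both genotypes. Titled stage also differed between the groups. On day 12 the August 11 knockout library and both August control libraries were titled DN2b, and among the earlier libraries only the February control was. The July libraries were titled DN2 on all days. With stage as a covariate limma again called 0 genes in the group comparisons. The part of titled stage in the shares below was not tested. Of the 1174 DN2b-higher genes tested, 94.5% had a positive time difference in knockout cells, with a median of 0.41, and 91.9% in control cells, with a median of 0.29. The same share over all genes was 58.8% in knockout and 64.3% in control cells, with medians of 0.08 and 0.10. Of the 545 DN2a-higher genes, 31.7% had a positive difference in knockout and 27.9% in control cells. Within the cultures, 80.3% of the DN2b-higher genes were higher on day 12 in the July knockout, 91.9% in the August 11 knockout and 84.5% in the July control culture, against 56.2%, 63.8% and 49.0% of all genes. The DN2a-higher genes were higher in 34.3%, 41.7% and 18%. In knockout cells 302 of the DN2b-higher genes (25.7%) had day 12 libraries above all earlier ones, against 7.12% of all genes, and 103 of the DN2a-higher genes (18.9%) had them below, against 7.02%. In control cells these counts were 188 (16.0%, against 6.42%) and 44 (8.07%, against 2.61%). After quantile normalization the shares of positive differences were 86.5% in knockout and 79.0% in control cells for DN2b-higher genes, and 26.6% and 21.5% for DN2a-higher genes, against 51.2% and 51.7% of all genes.

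**Figure D3:**
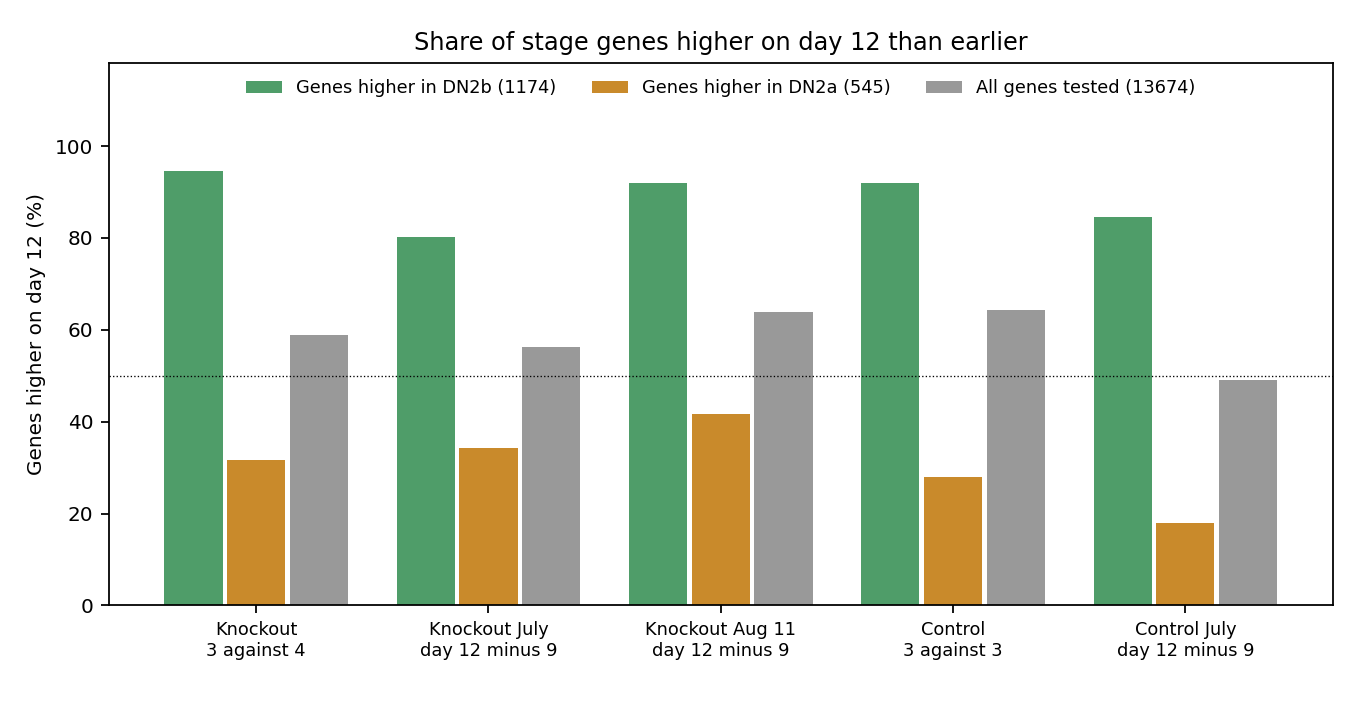
Share of genes (%) with a positive day 12 difference among genes higher in DN2b, genes higher in DN2a and all genes tested, for the group comparisons and for single cultures; the dotted line marks 50%. The DN2b-higher genes lie between 80.3% and 94.5% and the DN2a-higher genes between 18% and 41.7%.

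Most T-cell receptor genes had positive differences in both genotypes. Of 22 genes of the T-cell receptor complex and pre-TCR signalling, 17 had a positive difference in knockout cells and 20 in control cells, with medians of 0.43 and 0.34. None separated in knockout cells, against 7.12% of all genes upward, and Lat, Cd5 and Trat1 separated upward in control cells, against 6.42%. Without the July knockout library of day 12, 5 separated upward in knockout cells, as did 21.4% of all genes, and without the August 18 control library 9 did in control cells, as did 17.7%. Without the July cultures the medians were 0.21 in knockout and 0.08 in control cells, against 0.06 and 0.18 for all genes. Leaving out those cultures, here and below, keeps the February library as the only earlier control. Trat1, a receptor-associated adaptor, stood at 73.3, 109.3 and 71.0 FPKM in control cells on day 12, against 65.0, 61.8 and 44.2 FPKM earlier. Lat, the scaffold of T-cell receptor signalling, stood at 330.1, 246.4 and 236.3 FPKM in control cells on day 12, against 125.6, 201.6 and 234.5 FPKM, the February value lying just under the lowest of day 12.

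Ptcra, whose product pairs with the new beta chain in the pre-TCR, was lower in every knockout library than in every control library. It stood at 8.79, 15.4 and 31.1 FPKM in knockout cells on day 12, against 0.156, 6.05, 10.3 and 33.3 FPKM earlier, and at 130.4, 104.3 and 41.1 FPKM in control cells on day 12, against 59.9, 115.8 and 59.9 FPKM. The recombinase gene Rag1 stood at 157.3, 177.1 and 85.5 FPKM in knockout cells on day 12, against 50.3, 124.1, 79.8 and 127.1 FPKM, and at 186.2, 417.2 and 131.1 FPKM in control cells on day 12, against 138.6, 241.4 and 111.3 FPKM. Both genes overlapped between times in both genotypes.

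T-lineage transcription factors had a median difference of 0.31 in knockout and 0.28 in control cells over 21 genes, with 16 and 17 positive. In knockout cells 1 of the 21 separated upward, against 7.12% of all genes, and 1 downward, against 7.02%. Zeb1, a zinc-finger repressor needed for early thymocytes, separated upward in knockout cells, at 14.0, 14.8 and 11.9 FPKM on day 12 against 6.84, 11, 8.49 and 10.5 FPKM. Ets1, a factor of T-cell commitment, stood at 42.8, 64.8 and 28.2 FPKM in knockout cells on day 12, against 7.70, 35.1, 19.8 and 33.6 FPKM, and overlapped. Sox13, a factor associated with gamma-delta T cells, lay in opposite directions: at 14.5, 17.4 and 12.1 FPKM in knockout cells on day 12, against 19.1, 19.7, 27.8 and 19.1 FPKM, and at 60.5, 55.4 and 55.2 FPKM in control cells on day 12, against 53.7, 49.0 and 39.1 FPKM. No library crossed between times in either genotype, and the test of the genotype difference gave an adjusted p of 1.

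Most innate lymphoid and NK genes had positive differences in knockout cells, which was not the case in control cells. Of 19 genes tested, 15 had a positive difference in knockout cells (median 0.45) and 8 in control cells (median -0.15). In the July knockout culture 12 of the 19 were positive from day 9 to day 12, and 15 in the August 11 knockout culture. The sum of 24 members overlapped between times in knockout cells, at 2825, 3694 and 5127 FPKM on day 12, against 2920, 4278, 3490 and 3994 FPKM earlier. The members named below are among those with a positive difference. None separated upward in knockout cells, but 8 did without the July library of day 12, when 21.4% of all genes did. Zbtb16, which encodes the innate-lymphocyte factor PLZF, stood at 25, 78.0 and 44.5 FPKM in knockout cells on day 12, against 8.53, 23.9, 17.5 and 40.6 FPKM earlier, a difference of 1.14 (SE 0.42). In control cells it stayed between 8.82 and 13.6 FPKM. Id2, the E-protein inhibitor required for innate lymphocytes, stood at 48.4, 87.2 and 95.2 FPKM in knockout cells on day 12, against 38.2, 57.8, 31.6 and 68.6 FPKM earlier. Cd7, an early lymphoid surface protein that is not in the list, stood at 62.9, 108.5 and 145.0 FPKM, against 41.0, 58.2, 49.4 and 66.7 FPKM. Rora, a nuclear receptor of innate lymphoid cells, stood at 3.19, 9.22 and 15.0 FPKM, against 0.777, 1.94, 0.1 and 5.80 FPKM, and the costimulator Icos at 6.38, 10.5 and 16.5 FPKM, against 3.24, 3.97, 2.85 and 6.80 FPKM. In each of these genes the August libraries of day 12 were above every earlier knockout library, and the July library of day 12 was below the March one. The chemokine receptor Ccr2, also not in the list, showed the same arrangement, at 35.0, 63.0 and 84.9 FPKM on day 12 and 13.7, 30.7, 7.54 and 38.5 FPKM earlier.

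Kit lay higher on day 12 in all 3 knockout libraries. It stood at 63.4, 86.3 and 67.3 FPKM in knockout cells on day 12, against 24.2, 58.6, 29.0 and 57.0 FPKM earlier, a difference of 0.85 (SE 0.29). In control cells it stood at 49.9, 38.0 and 31.7 FPKM on day 12, against 32.6, 33.5 and 25.5 FPKM, and overlapped. Kit protein set the sort gates, and the part of the gate in this difference was not tested.

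Most other progenitor regulators did not follow Kit in the group comparison. Of 17 tested, Kit among them, 14 had a negative difference in knockout cells (median -0.20) and 10 in control cells (median -0.11). Without the July cultures the medians were -0.22 and -0.02, against 0.06 and 0.18 for all genes. Within the July knockout culture 8 of the 17 were positive from day 9 to day 12. Bcl11a, a zinc-finger factor of lymphoid progenitors, stood at 15.2, 14.4 and 12.1 FPKM in knockout cells on day 12, against 19.8, 23, 15.3 and 17.6 FPKM earlier. Mycn, a Myc family member of immature cells, stood at 11.3, 12.6 and 14.8 FPKM, against 29.0, 18.6, 17.1 and 23 FPKM, and the stem cell antigen Cd34 at 16.7, 18.9 and 11.6 FPKM, against 23.5, 23.5, 25 and 28.4 FPKM. All 3 separated in knockout cells, Bcl11a by the narrowest margin. They were the only 3 of the 17 to separate downward there, against 7.02% of all genes. Spi1, which encodes PU.1, stood at 18.1, 11.6 and 22.2 FPKM in knockout cells on day 12, against 41.1, 19.8, 24.8 and 25.7 FPKM, and overlapped. Cebpb, a myeloid and stress-response factor, separated at 6.45, 4.32 and 4.84 FPKM in knockout cells on day 12, against 18.6, 15.4, 9.81 and 17.1 FPKM.

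Among Notch targets and receptors, 8 of 15 had a positive difference in knockout and 10 in control cells, with medians of 0.24 and 0.12, and the control median became 0.0 with each library centred on its median. Among the 15, 1 separated downward in each genotype, against 7.02% of all genes in knockout and 2.61% in control cells. Nrarp, a direct target of Notch that restrains the pathway, separated downward in both genotypes. It stood at 47.7, 29.3 and 48.1 FPKM in knockout cells on day 12, against 67.8, 98.3, 65.4 and 83.3 FPKM earlier, and at 8.4, 3.56 and 9.03 FPKM in control cells on day 12, against 34.9, 13.7 and 13.7 FPKM. No library crossed between times. The differences were -0.92 (SE 0.34) in knockout and -1.39 (SE 0.36) in control cells, and -1.14 over both genotypes, with an adjusted p of 0.113 from limma.

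The group with the lowest differences in knockout cells, apart from stromal genes, was ribosome biogenesis and Myc targets. All 20 genes had a negative difference in knockout cells (median -0.75), and 13 of the 20 separated, against 7.02% of all genes. In control cells 11 were negative (median -0.02). Without the July cultures, with February as the only earlier control library, that median was 0.30, against 0.18 for all genes. The July control culture alone had -0.68. Odc1, the first enzyme of polyamine synthesis, stood at 91.5, 53 and 42.6 FPKM in knockout cells on day 12, against 165.9, 132.2, 149.6 and 104.5 FPKM earlier. Nop2, a ribosomal RNA methyltransferase, stood at 27.1, 21.1 and 26.4 FPKM, against 51.8, 47.8, 38.8 and 33.2 FPKM. Tcof1, which promotes ribosomal gene transcription, stood at 33.4, 36.1 and 29.2 FPKM, against 66.2, 64.6, 64.5 and 42.7 FPKM. Each of these 3 separated, with the March library lowest among the earlier ones. Myc itself stood at 33.6, 44.1 and 65.5 FPKM in knockout cells on day 12, against 90.1, 83.9, 51.7 and 69.5 FPKM, and overlapped.

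Most genes of amino acid supply and of the stress response that senses its lack also had negative differences in knockout cells. Of 17 tested, 13 had a negative difference in knockout cells (median -0.66) and 11 separated downward, against 7.02% of all genes. In control cells 11 were negative (median -0.18), and Sesn2 separated downward, against 2.61% of all genes. Within the cultures the medians were -0.89 in the July knockout, -0.57 in the August 11 knockout and -0.47 in the July control culture. Without the August 18 control library 6 separated downward in control cells, as did 8.18% of all genes. Slc7a5, a subunit of the L-type transporter for essential amino acids, stood at 19.9, 7.68 and 15.0 FPKM in knockout cells on day 12, against 55.7, 46.5, 46.1 and 37.1 FPKM earlier. Its difference of -1.72 (SE 0.30) had an adjusted p of 0.201 in limma. In control cells Slc7a5 stood at 34.0, 35.2 and 54.7 FPKM on day 12, against 60.7, 30.1 and 52.3 FPKM, and overlapped. Asns, asparagine synthetase, stood at 6.44, 3.60 and 0.837 FPKM in knockout cells on day 12, against 27.7, 12.9, 12.2 and 33.0 FPKM, a difference of -2.37 (SE 0.44). Of the serine and glycine enzymes, Psat1 stood at 87.4, 43.2 and 53.4 FPKM on day 12, against 150.5, 114.6, 96.4 and 131.5 FPKM, and Shmt2 at 89.2, 60.5 and 75.0 FPKM, against 186.5, 130.6, 118.8 and 124.0 FPKM. Atf4, the transcription factor of this response, stood at 117.2, 81.3 and 97.0 FPKM, against 221.8, 153.0, 141.1 and 152.5 FPKM. No library of these 5 genes crossed between times in knockout cells. Of the 4 members with a positive difference, Slc7a11, a cystine transporter, separated upward at 4.30, 3.82 and 3.12 FPKM against 2.27, 2.16, 2.44 and 2.38 FPKM.

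**Figure D4:**
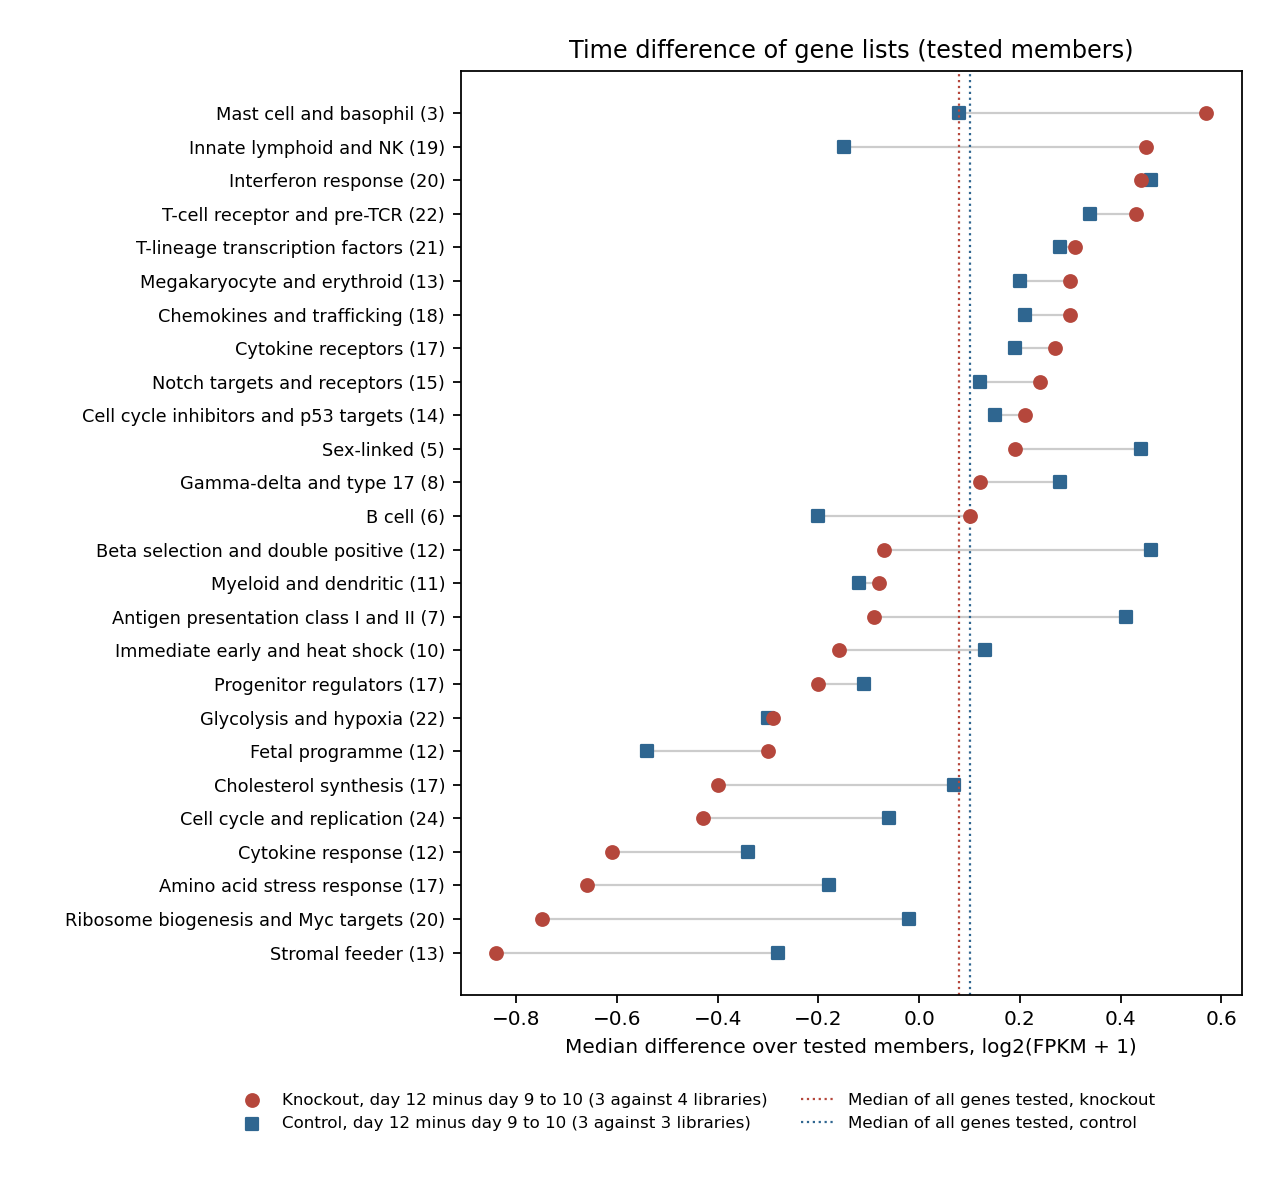
Median difference over tested members of 26 gene lists, day 12 minus day 9 to 10 on the log2(FPKM + 1) scale, in knockout (red circles) and control cells (blue squares); members tested stand in brackets, and dotted lines mark the medians of all genes (0.08 and 0.10). Ribosome biogenesis lies at -0.75 in knockout and -0.02 in control cells, and innate lymphoid and NK genes at 0.45 and -0.15.

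Most cholesterol synthesis genes had negative differences in knockout cells. Of 17 tested, 15 had a negative difference in knockout cells (median -0.40) and 7 separated downward, against 7.02% of all genes. In control cells 5 were negative (median 0.07, turning to -0.04 when each library was centred on its median). The July control culture alone had a median of -0.54, with 1 of 17 positive. Without the July cultures, with February as the only earlier control library, the control median was 0.39, against 0.18 for all genes. The July knockout culture had -0.35, with 4 positive, and the August 11 knockout culture -0.40, with 7 positive. Fdps, farnesyl diphosphate synthase, stood at 122.4, 111.1 and 115.7 FPKM in knockout cells on day 12, against 273.7, 135.4, 191.3 and 175.1 FPKM, and squalene epoxidase, Sqle, at 28.1, 21.2 and 21.8 FPKM, against 35.9, 37.1, 31.4 and 39.4 FPKM. Fabp5, a fatty-acid-binding protein, was among the genes with the smallest p in knockout cells. It stood at 120.5, 30.6 and 43.6 FPKM in knockout cells on day 12, against 262.6, 194.7, 185.6 and 174.5 FPKM earlier, a difference of -1.87 (SE 0.40). In control cells it stood at 160.3, 164.0 and 405.8 FPKM on day 12, against 418.1, 315.1 and 321.1 FPKM, and the August 18 library sat among the earlier ones. Glycolysis and hypoxia genes had medians of -0.29 in knockout and -0.30 in control cells over 22 genes. Of the 22, 4 separated downward in knockout cells, against 7.02% of all genes. The knockout median was -0.14 after quantile normalization. Within the cultures it was -0.57 in the July knockout, -0.02 in the August 11 knockout, where 10 of the 22 were positive, and -0.25 in the July control culture. Pfkp, a phosphofructokinase, separated in knockout cells at 15.2, 12.5 and 11.9 FPKM on day 12, against 29.1, 21.5, 19.7 and 35.5 FPKM, and lactate dehydrogenase, Ldha, at 479.5, 427.1 and 388.0 FPKM, against 742.0, 578.8, 531.0 and 651.1 FPKM.

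Cytokine response genes lay lower on day 12 while the receptor gene Il7r lay higher. Of 12 genes induced by gamma-chain cytokines or their STAT factors, 9 had a negative difference in knockout cells (median -0.61) and 8 in control cells (median -0.34). The July control culture had a median of -1.01. Of the 12, 5 separated downward in knockout cells, against 7.02% of all genes. Socs1, which inhibits JAK signalling, stood at 36.3, 58.0 and 45.6 FPKM in knockout cells on day 12, against 74.9, 87.3, 94.8 and 62.0 FPKM earlier, and at 28.8, 44.6 and 90.6 FPKM in control cells on day 12, against 75.7, 62.0 and 108.2 FPKM. Knockout libraries of the 2 times did not cross, and the August 18 control library was the one that did. The kinase gene Pim1 stood at 165.8, 128.2 and 123.6 FPKM in knockout cells on day 12, against 221.7, 209.4, 218.9 and 167.5 FPKM, and the survival gene Bcl2l1 at 36.3, 25.4 and 12.9 FPKM, against 51.9, 42.7, 50.6 and 36.9 FPKM. Both separated, each by a narrow margin to the March library. Ccnd3, the D cyclin of lymphoid precursors, separated at 209.4, 142.5 and 147.4 FPKM, against 346.8, 260.5, 266.3 and 228.3 FPKM, and Osm, a STAT5-induced cytokine, at 2.20, 3.24 and 1.96 FPKM, against 5.65, 4.56, 5.46 and 5.81 FPKM. Cish, another inhibitor of cytokine signalling, had a difference of -0.75 (SE 0.35) in knockout and -1.12 (SE 0.37) in control cells, and overlapped in both.

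Nearly all cell cycle and replication genes had negative differences in knockout cells. Of 24 genes, 23 had a negative difference in knockout cells (median -0.43) and 7 separated, against 7.02% of all genes. In control cells 18 were negative (median -0.06). Without the July cultures, with February as the only earlier control library, that control median was 0.37, against 0.18 for all genes. The July knockout culture had a median of -0.08, the August 11 knockout culture -0.40 and the July control culture -0.55. Without the July knockout library of day 12, 19 of the 24 separated downward, as did 13.9% of all genes. Pcna, the replication clamp, stood at 320.2, 244.2 and 190.6 FPKM in knockout cells on day 12, against 356.9, 443.1, 367.9 and 427.2 FPKM earlier. Gins2, a subunit of the replicative helicase, and Mybl2, a cell cycle transcription factor, were among the genes with the smallest p over both genotypes. Gins2 stood at 40.3, 32.5 and 28.0 FPKM in knockout cells on day 12, against 65.2, 63.0, 69.8 and 54.4 FPKM, and at 40.8, 42.6 and 60.6 FPKM in control cells on day 12, against 67.4, 56.7 and 77.0 FPKM. Mybl2 stood at 30.4, 27.5 and 20.6 FPKM in knockout cells on day 12, against 54.4, 53.6, 48.8 and 35.6 FPKM, and at 35.3, 36.7 and 45.6 FPKM in control cells on day 12, against 69.6, 46.2 and 62.7 FPKM. Mybl2 separated in both genotypes. Gins2 separated in knockout cells, while its August 18 control library lay above 1 earlier control.

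The cell cycle inhibitors and p53 targets did not lie opposite to these genes as a group. Of 14, 8 had a positive difference in each genotype, with medians of 0.21 and 0.15. Cdkn1a, which encodes the inhibitor p21, lay lower, at 36.6, 25.7 and 28.2 FPKM in knockout cells on day 12, against 72.4, 58.3, 69 and 45.4 FPKM. Btg2, an antiproliferative p53 target, stood at 16.7, 36.7 and 41.8 FPKM in knockout cells on day 12, against 7.87, 11.2, 11.9 and 29.3 FPKM, and overlapped through March.

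**Figure D5:**
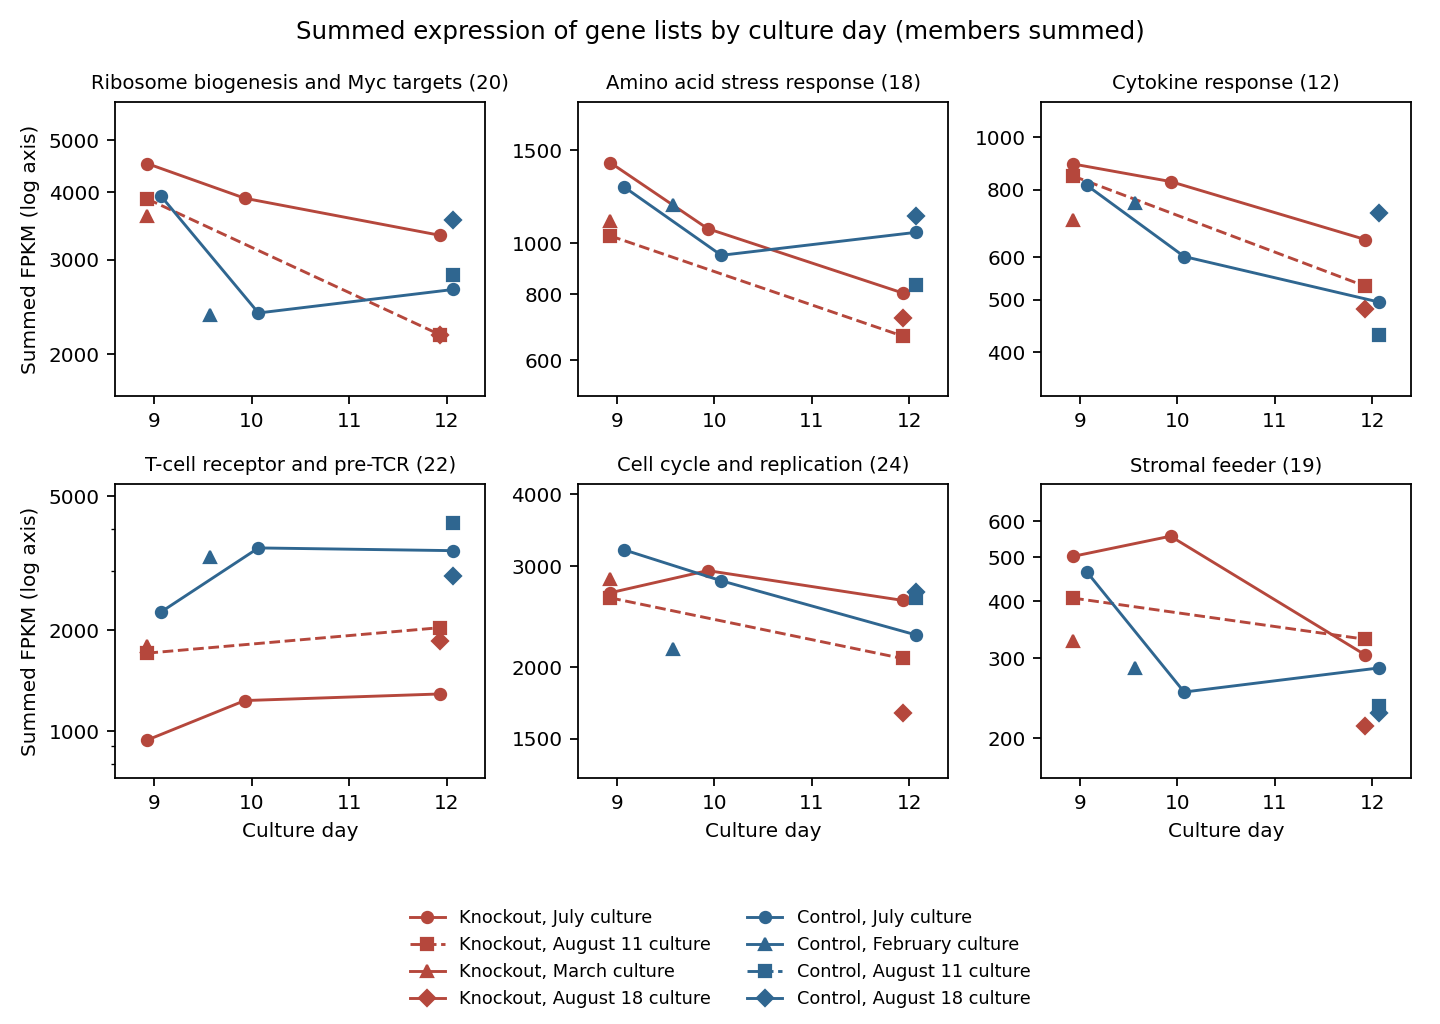
Summed FPKM of the members of 6 gene lists against culture day in the 13 libraries, knockout in red and control in blue; lines join libraries of 1 culture. In knockout cells the ribosome biogenesis sum lies between 2171 and 3329 FPKM on day 12 and between 3611 and 4525 FPKM earlier.

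Most interferon response genes had positive differences in the group comparisons of both genotypes. Of 20 tested, 18 had a positive difference in knockout cells (median 0.44) and 16 in control cells (median 0.46). In control cells 7 separated upward, against 6.42% of all genes, and in knockout cells none did. The July knockout culture had a median of 0.14 between day 12 and day 9, with 12 of 20 positive, against 0.09 for all genes. The August 11 knockout culture had 0.17, with 13 positive, against 0.21 for all genes, and the July control culture 0.65, with 18 positive, against 0.0. Oasl2, a 2'-5'-oligoadenylate synthetase-like protein, stood at 13, 18.3 and 12.4 FPKM in control cells on day 12, against 5.52, 6.72 and 6.56 FPKM earlier. Usp18, which removes the ubiquitin-like ISG15, stood at 5.56, 4.79 and 6.58 FPKM, against 2.70, 2.18 and 2.66 FPKM, and the regulator Irf7 at 14.4, 9.74 and 11 FPKM, against 5.25, 6.43 and 8.56 FPKM. Trim12c, Trim56 and Slfn5 are not in the list and were among the genes with the smallest p in control cells. Trim12c, of the TRIM antiviral family, stood at 12.7, 14.8 and 18.3 FPKM in knockout cells on day 12, against 7.55, 6.17, 9.84 and 11.2 FPKM, and at 12.3, 15.7 and 13.9 FPKM in control cells on day 12, against 7.64, 5.88 and 5.60 FPKM. Trim56 separated in both genotypes as well, with differences of 0.75 (SE 0.24) in knockout and 0.85 (SE 0.25) in control cells. Slfn5, a Schlafen family member, had a difference of 1.18 (SE 0.30) in control cells, at 6.81, 5.82 and 3.42 FPKM on day 12 against 1.16, 1.90 and 2.23 FPKM.

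Other genes with the smallest p in the knockout contrast were Frmd4b, Arhgap4, Baz2b and Gimap5, each higher in every day 12 library than in every earlier one. Frmd4b, a FERM-domain scaffold protein, stood at 6.79, 6.64 and 3.85 FPKM on day 12, against 1.69, 1.95, 1.53 and 3.24 FPKM. Arhgap4, a GTPase-activating protein, stood at 60.9, 84.7 and 91.9 FPKM, against 38.2, 37.6, 39.1 and 54.6 FPKM. Gimap5, a GTPase that supports lymphocyte survival, stood at 56.8, 67.4 and 78.0 FPKM, against 30.8, 35.0, 40.1 and 40.1 FPKM, and the bromodomain gene Baz2b had a difference of 0.92 (SE 0.21). Among genes lower on day 12, Csda, a cold-shock-domain protein that binds RNA and DNA, stood at 62.7, 23 and 36.8 FPKM, against 150.0, 92.4, 108.9 and 90.1 FPKM.

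Slc28a2, Spef1 and Vamp1 were higher in every day 12 library in both genotypes. Slc28a2, a concentrative nucleoside transporter, stood at 17.2, 24.2 and 22.3 FPKM in knockout cells on day 12, against 9.70, 9.78, 11.8 and 15.3 FPKM, and at 20.9, 24.5 and 19.3 FPKM in control cells on day 12, against 12.6, 15.2 and 11 FPKM. Vamp1, a vesicle fusion protein, had differences of 0.81 (SE 0.23) in knockout and 0.79 (SE 0.24) in control cells, and the microtubule-associated Spef1 of 0.82 (SE 0.19) and 0.51 (SE 0.20). Chd3, a nucleosome-remodelling helicase, had differences of 0.93 (SE 0.27) and 0.84 (SE 0.29). It separated in control cells, at 141.9, 127.5 and 111.7 FPKM on day 12 against 72.8, 74.7 and 63.3 FPKM. Nt5dc2, a nucleotidase-domain protein, was lower in every day 12 library of both genotypes, with differences of -0.60 (SE 0.24) and -0.80 (SE 0.26).

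In control cells the lowest genes by p included Tnni1, Tnni2 and Ccr7. Tnni1 encodes the slow skeletal troponin I. It stood at 101.8, 107.2 and 200.3 FPKM in knockout cells on day 12, against 70.7, 68.6, 53.8 and 104.9 FPKM earlier, and at 1.03, 0.1 and 0.174 FPKM in control cells on day 12, against 1.89, 2.56 and 13 FPKM. The control groups separated and the knockout groups overlapped. Ccr7, a chemokine receptor of lymphoid homing, stood between 15.9 and 27.1 FPKM in all knockout libraries, and at 10.5, 6.20 and 22.4 FPKM in control cells on day 12, against 31.2, 26.3 and 28.0 FPKM. Pkig, an inhibitor of protein kinase A, stood at 28.4, 21.4 and 27.2 FPKM in control cells on day 12, against 41.4, 35.2 and 36.7 FPKM. Nmral1 had a difference of -0.59 (SE 0.18) and the fast troponin I gene Tnni2 of -1.42 (SE 0.37) in control cells. Il21r, a gamma-chain cytokine receptor, was higher in control cells, at 9.5, 16.2 and 14.0 FPKM on day 12 against 6.32, 5.49 and 7.64 FPKM.

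Genes of the fetal programme lay lower on day 12, with 9 of 12 negative in knockout cells (median -0.30) and 11 in control cells (median -0.54). In knockout cells 2 of the 12 separated downward, against 7.02% of all genes, and in control cells 2, against 2.61%. H19, an imprinted noncoding RNA of fetal tissues, stood at 859.8, 979.7 and 999.2 FPKM in knockout cells on day 12, against 1044, 1161, 2229 and 1140 FPKM, and at 697.1, 758.0 and 1328 FPKM in control cells on day 12, against 1651, 1360 and 2619 FPKM. It separated in both genotypes, narrowly for the August 18 control library. Igf2bp1, a fetal RNA-binding protein, separated in control cells at 2.26, 2.53 and 4.54 FPKM on day 12, against 6.68, 5.34 and 6.53 FPKM.

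Most genes typical of stroma had negative differences in knockout cells. Of 13 tested members of the stromal list, 12 had a negative difference in knockout cells (median -0.84) and 10 in control cells (median -0.28), and 6 separated downward in knockout cells, against 7.02% of all genes. The July control culture had a median of 0.20, with 7 of 13 positive. The sum of 19 members in the table ran from 212.2 to 330.0 FPKM in knockout cells on day 12, against 327.8 to 556.2 FPKM earlier, and from 227.1 to 285.4 FPKM in control cells on day 12, against 252.6 to 464.5 FPKM. The collagen gene Col1a1 stood at 0.602, 0.336 and 0.515 FPKM in knockout cells on day 12, against 6.63, 12.1, 2.22 and 3.15 FPKM, and the matrix proteoglycan Bgn at 4.78, 0.867 and 1.19 FPKM, against 16.9, 28.3, 7.94 and 8.27 FPKM. Spp1, osteopontin, stood at 0.725, 0.213 and 1.44 FPKM, against 5.21, 17.8, 7.06 and 4.74 FPKM. Per the labels' protocols the harvested cells were sorted as CD45+ and CD25+, a gate that leaves out CD45- stroma. Fewer stromal cells and less stromal RNA per cell cannot be told apart in these bulk libraries, and the part of this difference in the other results was not tested.

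Markers of other blood cells were checked in the same way. Of 11 myeloid and dendritic genes tested, 6 had a negative difference in knockout and 7 in control cells (medians -0.08 and -0.12), and Csf1r, Csf3r, Elane, Lyz2 and Cebpa were too low to test. The myeloid sum was 338.0 to 624.6 FPKM in knockout cells on day 12, against 299.0 to 445.0 FPKM earlier, and 39.2 to 57.3 FPKM in control cells on day 12, against 58.1 to 83.2 FPKM. The summed mast cell and basophil markers were 460.8 to 800.5 FPKM in knockout cells on day 12, against 301.0 to 527.0 FPKM, and 109.6 to 335.4 FPKM in control cells on day 12, against 77.7 to 253.6 FPKM. Of 14 such markers listed, 3 were tested. The B-cell markers Cd79a, Ebf1 and Cd22 were too low to test. Megakaryocyte and erythroid genes had medians of 0.30 and 0.20 over 13 genes. Xist, the noncoding RNA of the inactive X chromosome, separated upward in knockout cells, at 179.1, 219.8 and 206.9 FPKM on day 12 against 95.9, 58.0, 101.5 and 144.8 FPKM, and stood at 135.2, 205.8 and 69.9 FPKM in control cells on day 12, against 78.1, 34.1 and 100.4 FPKM. The 5 sex-linked genes tested, Xist and the Y-linked Uty, Kdm5d, Ddx3y and Eif2s3y, all had a positive difference in both genotypes (medians 0.19 and 0.44). Uty also separated upward in knockout cells, at 3.62, 3.96 and 3.48 FPKM on day 12 against 2.35, 3.35, 2.12 and 3.20 FPKM. Xist and Uty were the 2 of these 5 that did so, against 7.12% of all genes.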

How the data were processed

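RNA-seq libraries were made from oligo-dT-selected RNA, fragmented and converted by random priming, with no step that marks strand, per the labels' protocols. The authors deposited 1 table of FPKM values. Its name calls it merged and corrected by ComBat, which takes out differences between batches, and the build was mm9, per the submitters' processing notes. Which programs aligned and quantified the reads, and what batches and groups ComBat was told, is not given in the sources used here, so the correction could have moved the time differences either way. Depth is unknown from FPKM, and no counting interval is given. The lowest value, 0.1 FPKM, acts as a floor.

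The table held 17754 genes, of which 92 symbols named 2 entries each. Columns were matched to samples by the number in each description; a further 16 sample columns had no match and were left out. Values were taken as log2(FPKM + 1), which understates differences of low genes. Tests were run on genes at 1 FPKM or more in at least 3 of the 13 libraries. limma 3.58.1 in R 4.3.3 was fitted to the 4 group means with a mean-variance trend and Benjamini-Hochberg adjustment (called: adjusted p under 0.05). The fit was tested on simulated data with the same genes and groups. Of 200 genes changed by 1 on the log2 scale among 13674, it recovered 99 in the knockout contrast, 79 in the control contrast and 163 over both genotypes. Unchanged genes called were 3, 3 and 5. Of 200 changed by 2 it recovered 190, 188 and 195, with 7, 7 and 15 unchanged genes called. The simulated libraries were independent, with no shared culture, date or batch, so these counts do not give the power in the real libraries.

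Groups are said to separate where no day 12 library overlaps an earlier one. Within a culture, differences of 1 or more were counted. The members, the 26 gene lists and the rule for named genes were chosen with earlier results of these data known. That rule took 12 fixed genes, the 8 genes each way with the smallest p per contrast, the 8 each way of the knockout cultures and 5 each way of all 3 cultures with the largest within-culture difference, among genes reaching 5 FPKM, and the most abundant list members; further genes are list members named after their values were seen.

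Libraries of 1 culture are paired by title date minus culture day. Their deviations from group means correlated at -0.071 in the August 11 knockout culture, at 0.010 and 0.301 for days 9 and 10 against day 12 in the July knockout culture and at -0.051 and 0.221 in the July control culture. Days 9 and 10, which share a group, correlated at -0.451 in the July knockout and -0.221 in the July control culture. The August 11 knockout and control libraries of day 12, of 1 title date, correlated at 0.505. Each group mean holds the libraries compared with it, so these values cannot decide whether libraries of 1 culture are independent. The culture was left out of the fit and tried as a replicate block. Other alternatives were another pseudocount, no filter, other scalings and variance models, day as a number, subsets of libraries and each library left out.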

Additional observations from a re-analysis of the deposited data

Results flagged for a closer look

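In the 4 knockout libraries of day 9 to 10, 1 library stood apart from the other 3 for 7 of the 92 genes examined. The July day 9 library was high for Atf4, at 221.8 FPKM. The August 11 day 9 library was high for H19, at 2229 FPKM, and for Sox13, at 27.8 FPKM. The March library was low for Tcof1, at 42.7 FPKM, and high for Arhgap4 (54.6 FPKM), Slfn5 (1.99 FPKM) and the chemokine receptor gene Ccr9 (28.6 FPKM). Chance sets a library apart in this way in about 1 of 20 groups.

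The genes Trnp1 and Sox13 lay in opposite directions in the genotypes with no library crossing. Among all 13674 genes, 6 separated upward in knockout and downward in control cells, and 5 the other way. Trnp1, a nuclear regulator of cell cycle progression in neural progenitors, stood at 9.11, 8.38 and 5.58 FPKM in knockout cells on day 12, against 3.21, 3.07, 2.37 and 4.33 FPKM earlier, and at 0.967, 0.505 and 0.704 FPKM in control cells on day 12, against 1.45, 2.38 and 1.61 FPKM. Its difference between genotypes in the time effect was 1.73 on the log2(FPKM + 1) scale. For Sox13 that difference was -0.79. In limma neither passed, with an adjusted p of 1 for both.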

How the results depend on the processing

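The 4 counts of called genes were 0 in the fit described and stayed at 0 with a pseudocount of 0.1, no filter, robust variances, no variance trend, day as a number, culture as a random replicate block, and 1 value per culture and time, and, added after seeing the data, without the February and March libraries, without genes with shared values and with the title stage as covariate. A fit of each genotype alone gave 0 calls in knockout and 0 in control cells. Over both genotypes, quantile normalization and median centring each gave 2 calls. Days 9 and 12 alone gave 1 call in control cells and 1 by genotype, as did the fit without the July cultures, at 1 and 1. Culture as a fixed replicate block gave 5 calls in control cells, 3 by genotype and 1 over both genotypes, and 0 in knockout cells. The title date as a replicate block gave 0 by genotype; over both genotypes it was not run, since time is fixed within a date. Leaving out each library in turn gave 0 to 27 calls in knockout cells, 0 to 5 in control cells, 0 to 37 over both genotypes and 0 to 2 by genotype. The cause of these differences was not tested. For 92 of the genes, 117 gene and contrast values were followed through these alternatives. Of 3393 alternative values, 3388 kept their direction and side of the threshold, 5 came to pass it and 0 reversed. Other contrasts of genes described, such as Ptcra and Slc7a5 in control cells, were not followed. The 5, all without the July knockout library of day 12, were Slc7a5 (-1.99), Asns (-2.82), Fabp5 (-2.43), Csda (-1.85) and Chd3 (1.3) in knockout cells. The random block correlation was -0.032 in the fit of 4 group means and 0.076 in the additive fit over both genotypes. Limits are the few cultures, of which 3 hold both times, the unequal stage titles and the unknown depth.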

Other observations

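The other lists gave these counts and medians. Among 17 cytokine receptors, 12 had a positive difference in knockout and 11 in control cells (medians 0.27 and 0.19). Among 18 chemokine and trafficking genes, 16 were positive in knockout and 10 in control cells (medians 0.30 and 0.21). Ccr9, the receptor that draws precursors to the thymus, stood at 54.6, 50.6 and 29.5 FPKM in control cells on day 12, against 12.5, 29.8 and 27.6 FPKM earlier, a difference of 0.96 (SE 0.36), with an overlap of the August 18 library. Genes of beta selection and the double-positive stage had medians of -0.07 in knockout and 0.46 in control cells over 12 genes, and antigen presentation genes of -0.09 and 0.41 over 7. The control median of antigen presentation became -0.41 without the July cultures, with February as the only earlier control library, against 0.18 for all genes. Gamma-delta and type 17 genes had medians of 0.12 and 0.28 over 8 genes. Immediate early and heat shock genes, which respond to handling, had medians of -0.16 and 0.13 over 10 genes.

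Cd44, an adhesion receptor of early precursors, stood at 10.8, 5.56 and 1.16 FPKM in knockout cells on day 12, against 10.2, 10.2, 9.59 and 10.6 FPKM earlier. The earlier libraries lay within a narrow band and the August libraries of day 12 below it, while the July library of day 12 was the highest of the 7. Nupr1, a stress-induced chromatin protein, stood at 2.38, 0.637 and 1.39 FPKM in knockout cells on day 12, against 10.0, 3.91, 4.5 and 6.14 FPKM, and at 1.82, 0.419 and 9.16 FPKM in control cells on day 12, against 5.71, 2.87 and 3.31 FPKM. The August 18 control library again had the highest control level.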
